A study of Mus musculus with 7 samples.

Results

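In mouse globose basal cells, 140 short domains of trimethylated histone H3 lysine 27 (H3K27me3) lay close to acetylated lysine 27 (H3K27ac) but shared no base with it. Each mark is taken here as covered in both of its libraries. In single libraries the marks often overlapped there, with an H3K27me3 peak of either library on the nearest H3K27ac region at 101 of the 140. They were chosen by the position of the peaks alone. On chromosomes 1 to 19, the bases covered by peaks of both H3K27me3 libraries were joined over gaps no wider than 3 kb, and joined regions with a span from 3 kb to under 10 kb were kept. A domain counted as abutting when it shared no base with a region covered in both H3K27ac libraries but had such a region within 2 kb of either edge. Of 25538 merged H3K27me3 regions, 4837 had a span of this size. The 140 abutting domains made up 2.89% of them (95% exact binomial interval 2.44 to 3.41), beside 3191 domains farther from H3K27ac, called remote here, and 1506 domains that overlapped H3K27ac. These intervals cover counting error only, and regions of the same libraries are not replicates.

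Globose basal cells are the dividing progenitors of the olfactory epithelium. The mice were wild-type adults, killed 7 to 10 days after methimazole had been given to destroy the epithelium and start its regeneration. Each replicate was a pool of 3 mice, and its cells were enriched by magnetic selection for c-Kit, a receptor that mast cells and melanocytes also carry. H3K27me3 had 2 libraries and H3K27ac had 2 libraries, with 3 input libraries of which no peak list was used, and there was no group without the lesion. The lists held 95749 and 65172 peaks for H3K27me3 replicates 1 and 2 and 77680 and 64279 peaks for H3K27ac replicates 1 and 2, and the read depth is unknown. One input is labelled as common to H3K27me3 replicate 1 and to H3K27ac replicate 2. All 14 listed genes of globose basal cells and neuronal progenitors carried an H3K27ac region of both libraries over the gene body, against 3 of 9 mast cell genes and 2 of 6 melanocyte genes, with Cpa3, Mcpt4, Tyr and Dct among those without one. Over all 20665 protein-coding genes the share was 67.3%. The lists also showed H3K27ac over 15 of 15 genes of immature and 12 of 13 of mature olfactory neurons, 12 of 12 of sustentacular cells, and 9 of 12 each of horizontal basal cells, respiratory epithelium and leukocytes. H3K27ac therefore does not single out the labelled cell type, and the part of other cells in the domains was not tested. H3K27me3 of both libraries lay over the body of 10 of the 14 globose basal cell and progenitor genes. These 10 thus carried both marks. The same held for H3K27me3 over 4 of 9 mast cell genes, 1 of 6 melanocyte genes, 13 of 15 genes of immature neurons and 11 of 12 of horizontal basal cells.

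H3K27me3 is written by Polycomb Repressive Complex 2 (PRC2) and is found over silent developmental genes, while H3K27ac is written by the acetylases p300 and CBP and marks active promoters and enhancers. Both modifications use the same lysine, so a single histone tail cannot carry both at that residue. Where a Polycomb domain meets active chromatin, the border often lies near a promoter or an enhancer of a neighbouring gene. In a pool of cells, 2 marks side by side on 1 chromosome and 2 marks in different cells cannot be told apart.

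Some borders lay between a pair of neighbouring genes, with the start of 1 gene in the H3K27me3 domain and the start of the next in the H3K27ac region. There were 6 such domains among the 136 domains on the chromosomes other than 18, the ones for which gene starts were used here. The promoters of 4 of these pairs are printed because they show the sequences on either side of the border. Each is the RefSeq sequence of GRCm38.p6 from 250 bases before to 50 bases after the start, 5′ to 3′ on the strand of the gene, with every CG dinucleotide in capitals. CG-rich promoters are those of housekeeping and of developmental genes, and unmethylated CG-rich DNA also attracts Polycomb complexes. The first pair is Chrng, which encodes the fetal γ subunit of the muscle acetylcholine receptor, in the domain (chr1:87205561-87205860, plus strand), and Eif4e2, a cap-binding translation regulator, in the H3K27ac region (chr1:87213661-87213960, plus strand).
Chrng: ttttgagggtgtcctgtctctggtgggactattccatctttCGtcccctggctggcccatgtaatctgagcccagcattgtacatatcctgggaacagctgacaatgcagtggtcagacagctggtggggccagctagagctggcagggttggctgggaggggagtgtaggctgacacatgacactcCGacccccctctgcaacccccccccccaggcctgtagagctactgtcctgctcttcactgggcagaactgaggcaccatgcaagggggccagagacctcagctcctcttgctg
Eif4e2: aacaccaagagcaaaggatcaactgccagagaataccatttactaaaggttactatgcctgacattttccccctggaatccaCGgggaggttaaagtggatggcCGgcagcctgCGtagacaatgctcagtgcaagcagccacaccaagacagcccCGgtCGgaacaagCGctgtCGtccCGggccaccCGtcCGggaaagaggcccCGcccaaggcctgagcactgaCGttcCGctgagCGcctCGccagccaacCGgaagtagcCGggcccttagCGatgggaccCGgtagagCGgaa
The second is Arid3c, a DNA-binding protein of the ARID family, in the domain (chr4:41731093-41731392, minus strand), and Dctn3, a dynactin subunit, in the H3K27ac region (chr4:41723114-41723413, minus strand).
Arid3c: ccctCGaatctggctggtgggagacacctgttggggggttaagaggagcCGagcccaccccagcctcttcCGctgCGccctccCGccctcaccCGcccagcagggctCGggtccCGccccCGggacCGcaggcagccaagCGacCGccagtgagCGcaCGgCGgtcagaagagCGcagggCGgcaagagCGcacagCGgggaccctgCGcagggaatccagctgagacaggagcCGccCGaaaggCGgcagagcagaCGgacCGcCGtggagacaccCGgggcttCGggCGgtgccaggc
Dctn3: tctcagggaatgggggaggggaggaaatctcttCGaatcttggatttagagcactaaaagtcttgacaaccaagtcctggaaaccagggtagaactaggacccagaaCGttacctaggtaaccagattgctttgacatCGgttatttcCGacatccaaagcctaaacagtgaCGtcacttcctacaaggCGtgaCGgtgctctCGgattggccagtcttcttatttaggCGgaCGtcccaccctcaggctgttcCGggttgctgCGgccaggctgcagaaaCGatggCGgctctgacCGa
The third is Aspdh, named for an aspartate dehydrogenase domain, in the domain (chr7:44465185-44465484, plus strand), and Josd2, a deubiquitinase, in the H3K27ac region (chr7:44467730-44468029, plus strand).
Aspdh: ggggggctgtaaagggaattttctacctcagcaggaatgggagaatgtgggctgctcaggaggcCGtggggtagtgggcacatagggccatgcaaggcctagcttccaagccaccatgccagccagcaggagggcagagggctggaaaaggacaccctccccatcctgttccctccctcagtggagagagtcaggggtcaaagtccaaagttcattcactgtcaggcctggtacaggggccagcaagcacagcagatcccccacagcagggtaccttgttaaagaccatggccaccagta
Josd2: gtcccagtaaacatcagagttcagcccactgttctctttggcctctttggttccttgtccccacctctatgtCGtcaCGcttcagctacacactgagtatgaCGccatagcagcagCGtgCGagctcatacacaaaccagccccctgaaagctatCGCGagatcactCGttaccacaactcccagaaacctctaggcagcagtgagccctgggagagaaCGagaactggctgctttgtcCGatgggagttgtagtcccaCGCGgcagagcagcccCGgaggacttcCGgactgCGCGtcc
The last is Gsc2, a goosecoid-like homeobox gene, in the domain (chr16:17914978-17915277, minus strand), and Ess2, a nuclear protein linked to splicing, in the H3K27ac region (chr16:17911299-17911598, minus strand).
Gsc2: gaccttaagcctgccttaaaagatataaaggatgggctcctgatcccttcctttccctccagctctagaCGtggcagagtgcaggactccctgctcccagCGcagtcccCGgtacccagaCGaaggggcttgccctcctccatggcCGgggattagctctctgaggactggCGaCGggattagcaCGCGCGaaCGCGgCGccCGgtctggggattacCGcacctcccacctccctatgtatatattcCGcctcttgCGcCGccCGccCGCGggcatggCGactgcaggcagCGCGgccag
Ess2: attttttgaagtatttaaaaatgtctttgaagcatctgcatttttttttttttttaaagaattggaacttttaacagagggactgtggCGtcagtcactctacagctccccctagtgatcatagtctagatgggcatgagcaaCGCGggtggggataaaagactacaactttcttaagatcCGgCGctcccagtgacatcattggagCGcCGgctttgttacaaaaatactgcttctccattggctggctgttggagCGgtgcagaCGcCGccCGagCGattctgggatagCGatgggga

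The 4 acetylated promoters held 20 CG dinucleotides at the first of the listed starts of Eif4e2, 15 at Dctn3, 16 at Josd2 and 13 at Ess2. The promoters under H3K27me3 were of both kinds, with 29 CG dinucleotides at Arid3c and 24 at Gsc2 but 2 at Chrng and 1 at Aspdh. The other 2 such domains held the starts of Apoa5, an apolipoprotein of triglyceride-rich particles, beside Zpr1, a zinc finger protein of growing cells, and of Rpl3l, the striated muscle form of a ribosomal protein, beside Msrb1, a methionine sulfoxide reductase. In all 6 domains both genes lay on the same strand, and the acetylated start lay downstream of the start in the domain. That each border fell between the starts follows from how these pairs were chosen. The shared strand holds for listed starts only. The annotated 5′ end of Grin2d lay in a domain beside the acetylated start of Kdelr1, a gene on the opposite strand. The starts were 2545 bp apart at Aspdh and Josd2, 3679 bp at Gsc2 and Ess2, and 8100 bp at Chrng and Eif4e2. This layout was noticed after the values were seen, and it was not tested.

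The authors' fold enrichment, a linear ratio of a peak over its background, gives the height of both marks at these pairs, and the highest peak of each library is used throughout. At Chrng the H3K27me3 fold was 4.12 in replicate 1 and 3.40 in replicate 2, and at Eif4e2 the H3K27ac fold was 14.3 and 10.4 in replicates 1 and 2, the best mean rank over both libraries among the nearest H3K27ac regions of the 140 domains. The gap between the marks was 1961 bp, close to the limit. The domain of Arid3c spanned 9730 bp and was covered without a break in both libraries, at an H3K27me3 fold of 8.26 and 4.94. The H3K27ac region of Dctn3 began 844 bp away and reached 13.7 and 8.04 in replicates 1 and 2. Neither of these 2 borders was crossed by a peak of a single library. At the domain that held the 3′ end of Lrrc4b, a synaptic adhesion gene, and the start of Aspdh, the H3K27me3 fold was 8.56 and 5.48, against an H3K27ac fold of 5.38 and 6.82 at Josd2 after a gap of 557 bp. There, a weaker H3K27me3 peak of replicate 1 reached into the H3K27ac region, and so did none of replicate 2.

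**Figure D1:**
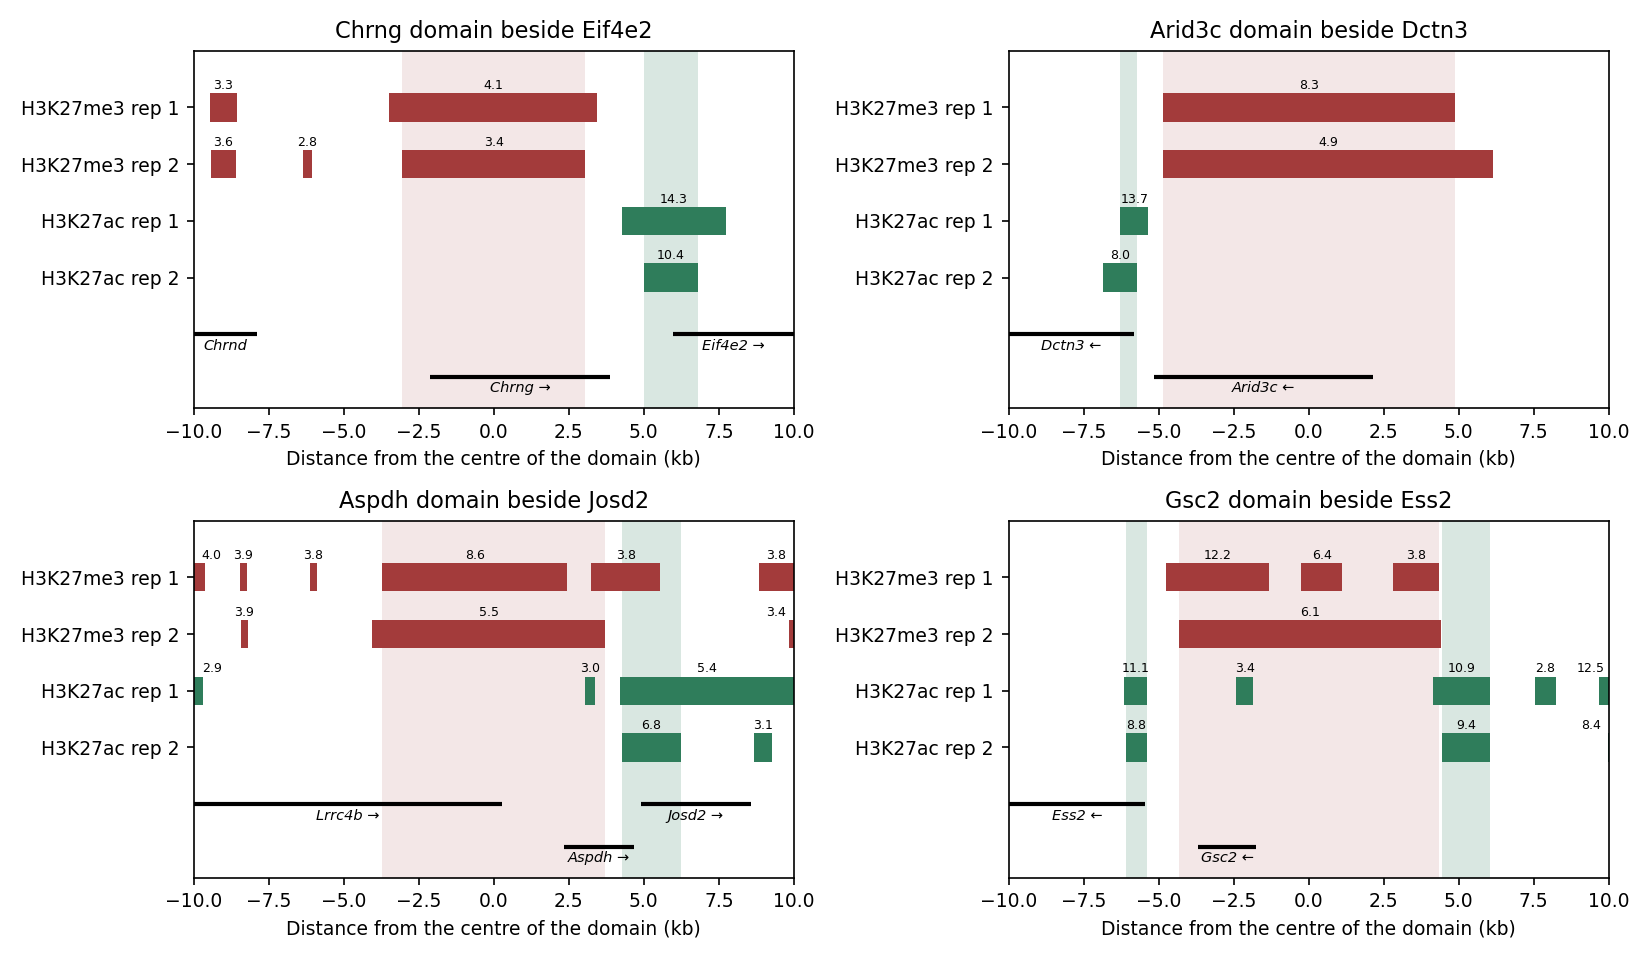
Peaks of the 4 libraries at 4 pairs of neighbouring genes, with the distance from the centre of the H3K27me3 domain in kb on the horizontal axis. Bars are the authors' peaks (H3K27me3 in red, H3K27ac in green) with the fold enrichment of each above it, the pale red band is the abutting domain, the pale green bands are the regions acetylated in both libraries, and black lines are genes with an arrow for the strand where it is known (genes cut by the frame to under 2 kb are left out). In each panel the H3K27me3 of both libraries covers the start of the first gene and the H3K27ac of both libraries covers the start of the second.

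The Gsc2 domain was the second strongest by fold in replicate 1 and had H3K27ac on both sides. It spanned 8658 bp, with an H3K27me3 fold of 12.2 in replicate 1 and 6.13 in replicate 2. The H3K27ac region with the start of Ess2 lay 1065 bp from its left edge, with a fold of 11.1 and 8.81. A second region with a fold of 10.9 and 9.41 lay 99 bp from the right edge. The H3K27ac peak of replicate 1 at this second region reached into the domain, and that of replicate 2 did not. Replicate 1 of H3K27ac also had a peak of fold 3.4 inside the domain, as the map of the 4 pairs shows.

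Both ends of Grin2d, which encodes a subunit of the NMDA-type glutamate receptor, lay under abutting domains. The domain at its 3′ end had the highest fold of all 140 in both libraries, 12.6 in replicate 1 and 7.91 in replicate 2. It spanned 4018 bp without a break, and the start of Grwd1, a ribosome assembly factor, lay in an H3K27ac region 759 bp away with a fold of 5.17 and 5.71. The domain at the 5′ end had an H3K27me3 fold of 6.76 and 4.80 and was acetylated on both sides. On the left, 341 bp away, a region of 737 bp with a fold of 8.79 and 4.78 held the start of Grin2d that was used here. On the right, 486 bp away, a region with a fold of 13.5 and 9.07 held the start of Kdelr1, a receptor that returns proteins to the endoplasmic reticulum. Single libraries crossed these borders. The H3K27me3 peak of replicate 1 reached over the start of Grin2d used here, and that of replicate 2 did not. H3K27ac of replicate 1 entered the domain on the left, and H3K27ac of replicate 2 entered it on the right. With each of the 4 libraries left out in turn, the domain overlapped an abutting domain only 1 time.

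Other strong domains covered the starts of Tbx21, Galr2 and Wnt2b. Tbx21, the T-box factor of type 1 helper T cells, had an H3K27me3 fold of 10.1 and 5.72 over its start, and an H3K27ac region of 177 bp with a fold of 3.70 and 3.26 lay 281 bp away. Galr2, a galanin receptor, had an H3K27me3 fold of 9.15 and 6.71 over its start, and Wnt2b, a Wnt ligand, had 8.57 and 5.30. The H3K27ac beside Galr2 reached 3.98 and 3.19 after 1265 bp, and the H3K27ac beside Wnt2b reached 5.72 and 5.21 after 1704 bp. A domain over the downstream part of Naglu, a lysosomal glucosaminidase, and Hsd17b1, an enzyme of estradiol synthesis, had an H3K27me3 fold of 7.79 and 6.35. Its H3K27ac neighbour, 494 bp away over Coasy, a coenzyme A synthase, had a fold of 7.49 and 6.86. The start of Naglu lay outside this domain, under H3K27ac of both libraries with a fold of 9.79 and 5.97. The 12 domains with the best mean rank of H3K27me3 fold among those with a named gene were completed by those at Chst5, a sulfotransferase, with 7.73 and 4.93, at Siglec15, a sialic acid receptor of osteoclasts, with 7.68 and 5.19, and at Tspan4, a tetraspanin, with 6.06 and 4.55. The listed starts of Tspan4 lay outside its domain, under H3K27ac of both libraries with a fold of 8.92 and 8.32. Single libraries crossed the border at each domain named in this paragraph. An H3K27me3 peak of replicate 1, or of replicate 2 at Tspan4, lay on part or all of the nearest H3K27ac region. At all of them but Naglu, an H3K27ac peak of 1 library also lay in the domain. Of these 12 domains, which were ranked only among domains with a gene, 10 held the boundary of a gene. Among all abutting domains with a gene body on them, 40 of 95 held one, and the difference was not tested.

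Most of the abutting domains were weaker than these. The median highest H3K27me3 fold was 4.05 in replicate 1, with a range of 2.86 to 12.6, and 3.50 in replicate 2, with a range of 2.85 to 7.91. A fold above 6 in replicate 1 was reached by 15 domains, with no break at that value in the plot of fold by replicate. Remote domains had medians of 4.23 and 3.62, and overlapping domains had 5.05 and 3.94. Since the rule used these peak calls, the values describe the domains and were not tested. A −log10 q of at least 2 in both libraries was reached by 61 of 140 abutting domains (43.6%), by 55.5% of remote domains and by 71.4% of overlapping domains. A value of at least 5 was reached by 6 of 140 abutting domains (4.29%), by 7.36% of remote domains and by 12.2% of overlapping domains. The fold was higher in replicate 1 than in replicate 2 at 110 of the 140 domains for H3K27me3, and at 99 of the 140 nearest H3K27ac regions.

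**Figure D2:**
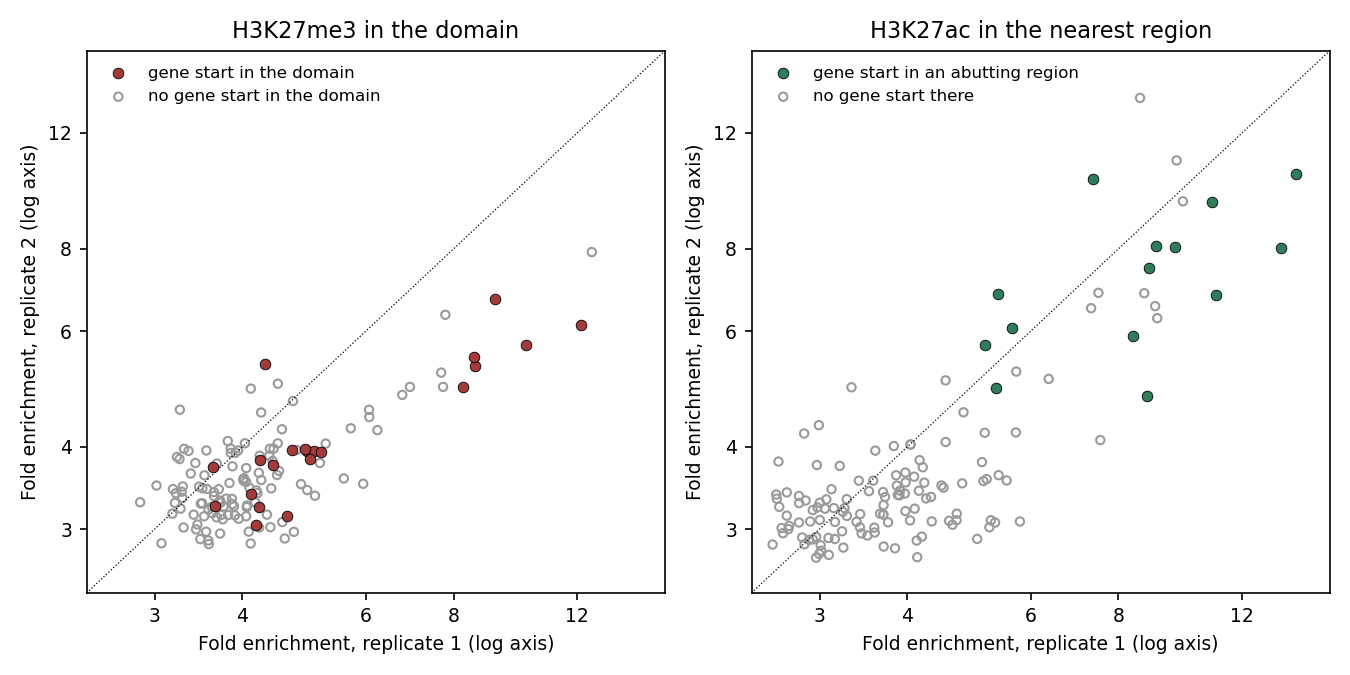
Highest fold enrichment of the 140 abutting domains (left, H3K27me3) and of their nearest H3K27ac regions (right), replicate 1 against replicate 2 on log axes, with the line of equal values dotted. Filled points are domains with a gene start in the domain (left) or in an abutting H3K27ac region (right), and open points are the others. Most H3K27me3 points lie around the medians of 4.05 and 3.50, and the 15 domains above a fold of 6 in replicate 1 trail off to the upper right.

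The domains were short and often broken. Their span had a median of 4519.5 bp and ran from 3032 to 9937 bp. They consisted of 1 to 5 stretches covered in both libraries, with a median of 2, and these stretches made up a median of 55.1% of the span, against 49.96% in remote and 66.2% in overlapping domains. The longest, with 9937 bp, held a listed start of Odf3l1, which is related to a sperm tail protein, and had an H3K27me3 fold of 4.24 and 3.82. The other listed start of Odf3l1, upstream of the first, lay outside this domain. Among domains with a named gene, the longest beside those of Arid3c and Gsc2 lay over Grhl3, a grainyhead-like regulator of epidermal barrier formation, with 8719 bp, over Lbhd2 with 8558 bp, and over Gabbr2, a subunit of the metabotropic GABA receptor, with 8015 bp. The domain over Grhl3 was among the weak ones, with a fold of 3.45 and 3.05.

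The gap to the nearest H3K27ac region had a median of 1017.5 bp and ran from 0 to 1992 bp. It was at most 1000 bp in 68 domains (48.6%) and at most 500 bp in 40 (28.6%). H3K27ac lay within 2 kb of both edges in 11 domains (7.86%), among them those of Gsc2, of the 5′ end of Grin2d, and of Irs3, an insulin receptor substrate. The limit of 2 kb did not fall at a break in the distances. Counts per kb of gap were 68 for the first and 72 for the second kb, against 74 and 112 for the next 2, which are remote. The 3 widest gaps inside the limit were 1959, 1961 and 1992 bp, and the 3 narrowest outside it were 2005, 2013 and 2020 bp. The 3 domains just outside had an H3K27me3 fold of 4.09, 3.95 and 8.03 in replicate 1, and the 3 just inside had 3.73, 4.12 and 3.26.

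**Figure D3:**
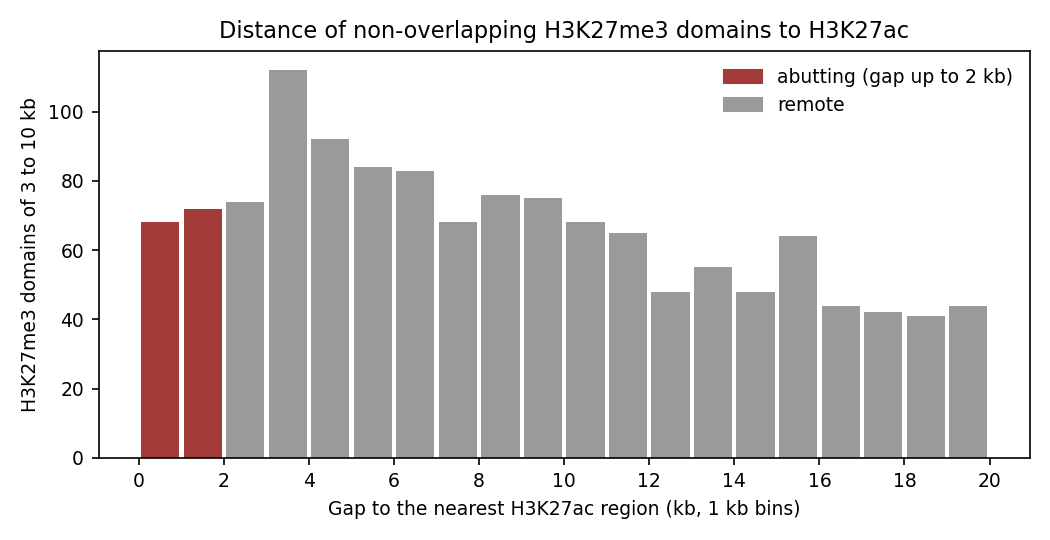
Number of H3K27me3 domains of 3 to 10 kb by the gap to the nearest region acetylated in both libraries, in bins of 1 kb up to 20 kb. The abutting domains (red, 68 and 72 in the first 2 bins) form no peak at short distance, and the remote domains (grey) reach 112 between 3 and 4 kb.

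The abutting H3K27ac regions were mostly short and weak, less so those with a listed gene start. The nearest region had a median length of 631 bp, with a range of 10 to 5372 bp, against a median of 849 bp over all 50210 regions acetylated in both libraries. It was shorter than 200 bp at 21 domains and shorter than 100 bp at 8. The median H3K27ac fold of the nearest regions was 3.86 and 3.36 in replicates 1 and 2, against 4.28 and 3.67 over all regions. The 15 abutting regions that held a listed gene start had a median fold of 8.85 and 7.48 and a median length of 1249 bp, against 3.68 and 3.29 and 566 bp in the 130 regions without one on the same chromosomes. The highest folds among those 130 were 10.9 and 13.6 in replicates 1 and 2. Some of the 130 lay at genes with no listed start, as at Coasy with 7.49 and 6.86, so the contrast holds for listed starts only. Beside the promoters already named, those with a start included Exoc3, a subunit of the exocyst, with a fold of 9.62 and 8.05, and Hsbp1, a binding protein of heat shock factor, with 9.06 and 8.09. The H3K27me3 domain beside Exoc3 had a fold of 5.95 and 3.52, and the one beside Hsbp1 had 4.06 and 3.26. A region with a fold of 9.88 and 9.45 lay in Rpl38, a ribosomal protein gene required for the patterning of the skeleton, 671 bp from a domain with an H3K27me3 fold of 3.87 and 3.74. The annotated 5′ end of Rpl38 lay in that domain, and its listed start lay in the gap.

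Listed gene starts lay in a minority of the domains at the authors' peak threshold. A protein-coding gene start lay in 21 of 136 abutting domains (15.4%, interval 9.82 to 22.6), against 13.3% of remote and 45.0% of overlapping domains. The nearest H3K27ac region held a start at 13 of 136 domains (9.56%, interval 5.19 to 15.8) and any abutting region did at 14 (10.3%), against 18.4% of all H3K27ac regions. No listed start lay on either side at 107 of the 136 domains (78.7%). These shares of starts can be too low, since 23 of the 120 genes at these domains had no listed start, Hsd17b1, which lies wholly inside its domain, and Foxh1 among them. The annotated 5′ ends of Grin2d and Rpl38 also lay in domains that were not counted, because their listed starts lay elsewhere. A start was counted anywhere in the joined span of a domain. Some counted starts can therefore lie in stretches not covered in both H3K27me3 libraries. The shares moved with the peaks used. Without H3K27me3 replicate 2, a start lay in 7.99% of the abutting domains. For peaks with a −log10 q from 2 up a start lay in 37.5%, and in 63.6% from 5 up. With these thresholds, set for the lists of both marks, 59 and 11 domains met the rule. Only 18 and 4 of the abutting domains described here overlapped one of them. The rise therefore cannot be read as a property of the stronger domains described here. No remote or overlapping share is given for these thresholds. The nearest H3K27ac region held one at 21.4% and 54.5% with these thresholds, at 18.6% with a merging gap of 1 kb, at 19.6% when H3K27ac of either library barred a domain, and at 16.5% without H3K27me3 replicate 1. The interval of the abutting share of starts in domains includes the remote share. The H3K27me3 fold had a median of 4.91 and 3.94 in the 21 domains with a listed start, against 3.90 and 3.46 in those without one. The latter include domains with an annotated gene end but no counted start, as at Hsd17b1 and the 5′ end of Grin2d, so the contrast holds for listed starts only.

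By the gene annotation, 55 of the 140 abutting domains lay inside a gene (39.3%, interval 31.1 to 47.9), against 34.2% of remote and 26.7% of overlapping domains. A further 40 held the boundary of a gene (28.6%, interval 21.3 to 36.8), against 18.3% of remote and 55.6% of overlapping domains. The other 45 lay between genes (32.1%, interval 24.5 to 40.6), against 47.5% of remote and 17.7% of overlapping domains. Domains between genes were a median of 11308 bp from the nearest gene when abutting and 31528 bp when remote. Nearness to H3K27ac was part of the rule, so its part in these shares cannot be told apart from that of the domains. Of the 55 domains inside a gene, 53 had their H3K27ac region in the same gene. Among the 43 of these domains with a known strand, the H3K27ac lay upstream in 17 (39.5%, interval 24.98 to 55.6).

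**Figure D4:**
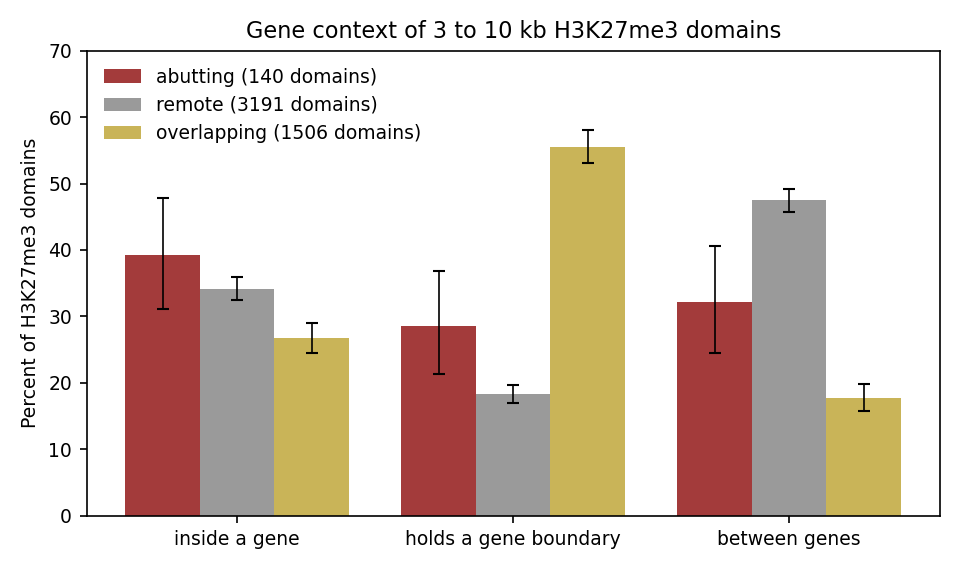
Share of H3K27me3 domains of 3 to 10 kb inside a protein-coding gene, holding a gene boundary or between genes, in percent, for abutting (red), remote (grey) and overlapping (yellow) domains. Bars are shares and whiskers are 95% exact binomial intervals. The abutting domains lie between the other classes at gene boundaries (28.6%) and between genes (32.1%).

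The promoters in the abutting domains held few CG dinucleotides. They were counted anywhere in the joined span, so some can lie in stretches not covered in both H3K27me3 libraries. The 23 annotated starts of 21 genes had a median of 4 CG dinucleotides in 300 bases, with quartiles of 3 and 15, and 7 of the 23 (30.4%) had 10 or more. The 18 starts of 15 genes in the abutting H3K27ac regions had a median of 20.5, and 17 of them (94.4%) had 10 or more. The share with 10 or more was 56.0% of starts in remote domains, 80.1% in overlapping domains, 86.5% in all H3K27ac regions and 57.9% of all protein-coding starts. The medians were 11 for 470 starts in remote domains, 20 for 819 starts in overlapping domains, 22 for starts in all H3K27ac regions and 14 for all protein-coding starts. The promoters with 29 and 24 CG dinucleotides at Arid3c and Gsc2 were thus above the upper quartile of those in abutting domains. The promoters of Chrng and Aspdh were below the lower quartile. The search used the letters CG, which read the same on both strands, and some starts of 1 gene share most of their 300 bases.

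A protein-coding gene body touched an abutting domain or its H3K27ac region at 121 of 20665 genes (0.586%). No gene of the 13 cell type marker lists was among them, and neither was any of the listed PRC2 and PRC1 subunits, proliferation genes, Notch, Bmp and Fgf pathway genes, 39 Hox genes, 18 Sox genes or 1104 olfactory receptor genes. In all, 23 of 35 lists had no gene there. With a share of 0.586% over all genes, an empty short list cannot be read as avoidance, and no list was tested. The other lists had 1 or 2 genes each. The Wnt pathway list had Wnt2b alone among 57 genes. Of 12 Tbx genes, Tbx21 and Tbx19, the pituitary T-box factor, were touched. The 2 domains of Tbx19 had an H3K27me3 fold of 4.06 and 3.24 and of 3.62 and 3.24 in replicates 1 and 2, and shared 1 H3K27ac region with a fold of 4.04 and 4.03. Of 65 axon guidance genes, Slit1, a secreted repellent, and Efnb3, an ephrin, were touched. Their domains had an H3K27me3 fold of 3.64 and 3.37 at Slit1 and of 4.51 and 3.68 at Efnb3. Of 41 Fox genes, Foxh1, a partner of Smad proteins, lay at a domain shared with Kifc2, with an H3K27me3 fold of 4.38 and 3.97 beside an H3K27ac fold of 8.71 and 6.85.

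The domains inside Grm4, a metabotropic glutamate receptor gene, and Cacna1e, a calcium channel gene, were not among the 15 above a fold of 6. The H3K27me3 fold was 3.49 and 3.28 at Grm4, and it lay above the median at Cacna1e with 4.55 and 4.25. Of 46 genes for glutamate receptors and for ionotropic GABA and glycine receptors, Grin2d and Grm4 were touched. Gabbr2, with 2 domains, was not in that list, which leaves out the metabotropic GABA receptor genes. Of 49 keratin genes, Krt90 and Krt75 lay at 1 domain with a fold of 4.71 and 3.95. Of 42 collagen genes, Col4a2 had a domain with 4.37 and 3.88, and of 90 cadherin and protocadherin genes, Cdh23, a cadherin of hair cell tip links, had one with 4.40 and 3.46. Of 386 Zfp genes, Zfp541 and Zfp119b were touched, and of 79 ribosomal protein genes, Rpl38 and Rpl3l were. The counts of 1 or 2 genes per list are too small to be read against the share over all genes. The domains were spread over all 19 chromosomes, from 1 on chromosome 14 (0.763% of its domains of this size) to 17 on chromosome 7 (3.96%), with the largest share on chromosome 17 (5.19%). In 5 genes more than 1 domain was found, with 3 in Fgd5, a guanine nucleotide exchange factor of endothelial cells.

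Single libraries often crossed the border that both libraries together defined. An H3K27me3 peak of replicate 1 lay on the nearest H3K27ac region at 81 of 140 domains (57.9%) and a peak of replicate 2 at 23 (16.4%), with 101 for either (72.1%). In 50 of these cases for replicate 1 and 13 for replicate 2 it was the peak of the domain itself that reached into the H3K27ac region. An H3K27ac peak of replicate 1 lay in the domain at 69 of 140 (49.3%) and a peak of replicate 2 at 29 (20.7%), with 83 for either (59.3%). Remote domains held an H3K27ac peak of either library at 20.6%. At 26 domains (18.6%) no single-library peak lay in the domain or on the nearest region of the other mark, and these include the domains of Chrng, Arid3c, Apoa5 and Rpl3l and those beside Grwd1, Exoc3 and Rpl38. Of the 14 domains with a gene start in an abutting H3K27ac region, 7 were among these 26.

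**Figure D5:**
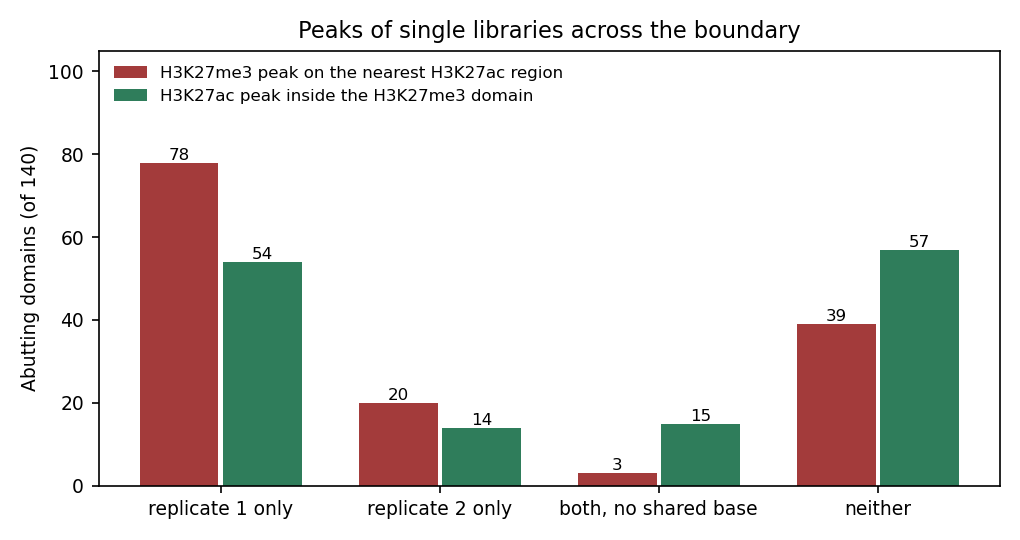
Number of the 140 abutting domains with a peak of 1 library across the border, as H3K27me3 on the nearest H3K27ac region (red) and H3K27ac inside the H3K27me3 domain (green). Replicate 1 alone accounts for 78 and 54 domains, replicate 2 alone for 20 and 14, and 39 and 57 domains have neither.

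Membership moved with the libraries used. The number of abutting domains was 236 without H3K27me3 replicate 1 and 297 without H3K27me3 replicate 2, and 182 and 163 without H3K27ac replicates 1 and 2. When each of the 4 libraries was left out in turn, so that the other library of that mark stood alone, 14 of the 140 domains overlapped an abutting domain each time, and 6 did in none of the 4. The 14 include the domains beside Eif4e2, Grwd1, Napa, an adaptor of membrane fusion, and Msrb1, as well as those at Rpl38 and Foxh1. At a −log10 q of at least 5 in all lists, 11 domains met the rule and 4 of the 140 overlapped one of them, at Aspdh, at the 3′ end of Grin2d, at Naglu and at Gsc2.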

How the data were processed

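The 4 peak lists, 1 for each immunoprecipitated library, were used as deposited. The submitters' processing notes name fastp, Bowtie, Picard and MACS2 as tools and GRCm38 (mm10) as the build, and tool versions are not given in the sources used here. These lists hold the 9 columns of broad peaks. In them the authors deposited, for each peak, a fold enrichment (a linear ratio), a −log10 p, a −log10 q and a score. Their smallest −log10 q was just above 1. The files give no read totals, so depth is unknown, and an absent peak says only that none was called. The 2 libraries of a mark were treated as pools of different mice.

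Intervals were handled with Python 3.11.15, pandas 2.3.3 and numpy 2.4.6, and exact binomial intervals came from scipy 1.17.1. The rule was tested on simulated data with planted domains. A fold given for a domain or region is that of the highest overlapping peak. Genes, and starts of 16457 protein-coding genes on the 18 chromosomes other than 18, came from RefSeq tables of GRCm38.p6. Where a gene had no listed start, only its body was used. The domains and lists were chosen with earlier results of these data known. Named genes are those at the 12 domains with the best mean rank of H3K27me3 fold, at the 6 longest and at the 6 with the best mean rank of H3K27ac fold, passing over domains without a named protein-coding gene, and up to 4 per list, of which 1 is not reported here. Other genes were named after their values were seen. No test was planned, since the rule used the peak calls and regions are not replicates. The merging gap, the abutting distance, the peak threshold, the H3K27ac definition and the libraries used were varied.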

Additional observations from a re-analysis of the deposited data

How the results depend on the processing

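Of 88 values recomputed under the alternatives, 52 moved by less than their interval or stayed within 1.5 times the count, and 36 moved more; the cause was not tested. The number of abutting domains, 140, became 68 with an abutting distance of 1 kb and 418 with 5 kb, 59 and 11 for peaks with a −log10 q from 2 and from 5 up, and 57 when H3K27ac of either library barred a domain. Leaving out 1 library gave 163 to 297. Their share of domains, 2.89%, became 3.41% with a merging gap of 1 kb, 1.41% and 8.64% with abutting distances of 1 and 5 kb, 2.13% with peaks from a −log10 q of 5 up, and 1.18% when either library barred a domain, with 3.09 to 3.76% without 1 library. Acetylation at both edges, 7.86%, became 0% with peaks from a −log10 q of 5 up and 3.51% when either library barred a domain. The share with a gene start in the domain, 15.4%, became 7.69% with an abutting distance of 1 kb, 37.5% with peaks from a −log10 q of 2 up and 63.6% from 5 up, with 7.99 to 15.8% without 1 library. The share with a start in the nearest H3K27ac region, 9.56%, became 18.6% with a merging gap of 1 kb, 21.4% and 54.5% with peaks from a −log10 q of 2 and of 5 up, and 19.6% when either library barred a domain, with 6.78 to 16.5% without 1 library. The median gap, 1017.5 bp, became 1189 bp with a merging gap of 1 kb, 342.5 and 2972 bp with abutting distances of 1 and 5 kb, and 1244 bp with peaks from a −log10 q of 5 up. The median H3K27me3 fold of replicate 1, 4.05, became 4.87 and 3.85 with merging gaps of 1 and 5 kb and 5.58 and 10.3 with peaks from a −log10 q of 2 and of 5 up, with 3.62 to 4.05 without 1 library. That of replicate 2, 3.50, became 3.95 with a merging gap of 1 kb and 4.24 and 6.35 at these thresholds. Of the 140 domains, 40 overlapped an abutting domain with a merging gap of 1 kb and 90 with 5 kb. With peaks from a −log10 q of 2 up 18 did, and from 5 up 4 did. Without H3K27me3 replicate 1, 86 did, without H3K27me3 replicate 2, 36 did, without H3K27ac replicate 1, 111 did, and without H3K27ac replicate 2, 71 did. No paired analysis was possible because the values come from no test and which libraries of the 2 marks share a pool is not told by the labels. One input is common to H3K27me3 replicate 1 and H3K27ac replicate 2, but this does not settle it. Read depth is unknown, so what it limits cannot be given.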
